A study of Homo sapiens with 12 samples.

Results

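The genes described here are those of glycolysis, gluconeogenesis and sugar transport in Caco-2 cells, a long-established line grown from a tumour of the human colon. A list of 36 genes was looked up by symbol among the probes of the array, and a gene was kept if 1 of its probes was detected, with a detection p-value under 0.05, on each of the 3 arrays of some group. Of the 36 genes, 34 had a named probe and 27 were kept, against 10584 named genes and 14285 tested features in all, where a feature is a named gene or an unnamed probe. The 4 groups of 3 arrays were MTF1 siRNA with 150 µM (high) zinc, MTF1 siRNA with 3 µM (low) zinc, control siRNA with high zinc and control siRNA with low zinc. Every sample had been transfected with lipofectamine RNAiMAX, so that the controls carried a non-targeting oligonucleotide. MTF1 is the transcription factor that senses zinc in the cell and switches on metallothionein genes, and the series title asks how it shapes the response of the transcriptome to zinc. The design text of the series mentions ZNF658 and 2 siRNAs in place of MTF1, but its title and the 12 sample labels name MTF1, and the groups follow the sample labels.

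Glycolysis splits glucose into pyruvate in the cytosol. Its speed is set largely by hexokinase, which traps glucose as its phosphate, by phosphofructokinase, which commits the sugar to the pathway, and by pyruvate kinase. Fructose 2,6-bisphosphate, made and removed by the PFKFB enzymes, is a potent activator of phosphofructokinase, and lactate dehydrogenase returns pyruvate to lactate so that the pathway can go on without oxygen. Gluconeogenesis runs the other way with enzymes of its own, and intestinal cells take up sugar through SGLT1 and the GLUT carriers.

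Values are normalized log2 intensities, differences are log2 differences, and a ± beside a difference is its standard error (SE). Between 18191 and 19469 of 47323 probes were detected per array, and the arrays correlated with each other at 0.9709 to 0.9921. The labels do not say that the 3 samples of a group were separate cultures, so the p-values measure only the spread between these samples, and the number of arrays limits the precision. At high zinc MTF1 lay between 5.31 and 6.25 with MTF1 siRNA and between 6.55 and 6.80 with control siRNA (difference of means -0.98; limma, adjusted p = 0.0483), and at low zinc between 5.69 and 6.28 with MTF1 siRNA and between 6.49 and 6.77 with control siRNA (-0.71; adjusted p = 0.201). MT1X, a metallothionein, rose with zinc by 6.30 with MTF1 siRNA (means 13.55 at high and 7.24 at low zinc). With control siRNA it rose by 5.10 (means 13.88 and 8.79). SLC30A1, a zinc exporter, rose with zinc by 2.15 with MTF1 siRNA and by 2.64 with control siRNA. At high zinc SLC30A1 was lower with MTF1 siRNA than with control siRNA (-0.57; limma, adjusted p = 0.0188). At low zinc SLC30A1 did not pass between the siRNAs (-0.08, adjusted p = 0.736). MT1X passed between them neither at high zinc (-0.34, adjusted p = 0.713) nor at low zinc (-1.54, adjusted p = 0.175). MTF1 itself had 1 probe, of low intensity, and its differences were not followed under other processing settings. Of 9 intestinal epithelial markers 7 were detected on all 12 arrays, while KRT20 was detected on 5 and LGALS4 on none. The summed level of the 7 lay between 15.30 and 15.31 at high zinc and between 15.22 and 15.42 at low zinc with MTF1 siRNA, and between 15.41 and 15.59 at high zinc and between 15.23 and 15.25 at low zinc with control siRNA. Within it KRT8 (0.34 with MTF1 siRNA and 0.43 with control siRNA) and KRT18 (0.86 with MTF1 siRNA and 0.47 with control siRNA) rose with zinc, CDH1 (-0.39) and VIL1 (-0.42) fell with MTF1 siRNA, and the others did not pass. Markers of other cell types moved with zinc as well. The summed level of 4 fibroblast markers (COL1A1, COL1A2, COL3A1 and LUM, of 6 listed) lay between 10.37 and 10.50 at high zinc and between 9.67 and 9.87 at low zinc with MTF1 siRNA. With control siRNA it lay between 10.55 and 10.58 at high zinc and between 10.02 and 10.11 at low zinc. Of these 4 genes COL1A2 rose with both siRNAs, COL1A1 fell with control siRNA, and the others did not pass. Summed over CD79A, CD14 and LYZ, the leukocyte markers lay between 9.54 and 9.58 at high zinc and between 10.00 and 10.24 at low zinc with MTF1 siRNA, and between 9.63 and 9.74 at high zinc and between 9.97 and 10.05 at low zinc with control siRNA. LYZ was the member that passed, with both siRNAs. CDH5, the 1 endothelial marker of 3 that entered, lay between 6.12 and 6.52 at high zinc and between 5.22 and 5.83 at low zinc with MTF1 siRNA, where it rose, and between 5.86 and 6.17 at high zinc and between 5.45 and 5.76 at low zinc with control siRNA, where it did not pass. VWF and CD3E were detected on no array, PECAM1, PTPRC and PDGFRB on 1 and DCN on 2. The part of these markers in the results below was not tested.

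High against low zinc asks which of these transcripts respond to zinc, once with MTF1 siRNA and once with control siRNA. The genes were listed with earlier results of these data known, so their shares beside those of all features are description and no test of the pathway. With MTF1 siRNA 8 of the 27 genes (29.6%) passed the threshold of an adjusted p under 0.05, against 15.7% of all features, and at an unadjusted p under 0.05 there were 10, against 29.2%. The 6 that rose were HK2, PFKP, ALDOA, PFKFB3, ENO2 and PCK2 (7.20% of all features rose), and PFKFB4 and PDK2 fell (8.51% of all features fell). With control siRNA 8 of 27 (29.6%) again passed, against 18.0% of all features, and at an unadjusted p under 0.05 there were 12, against 32.6%. ENO2 and PDK2, and FBP1, which did not pass, each entered only through the group in which it was high. With detection on all 12 arrays required, 6 of 23 genes passed with MTF1 siRNA, against 18.8% of all features. The 8 calls with control siRNA were kept, which is 8 of 23, against 23% of all features. Of the 8 of 27 called with control siRNA, HK2, ALDOA, PFKFB3, LDHA and SLC2A3 rose (8.62% of all features rose). GPI, PFKL and PFKFB4 fell (9.39% of all features fell). PFKFB3, an enzyme that makes fructose 2,6-bisphosphate, had the largest difference of the 27 genes in both comparisons, 2.22-fold with MTF1 siRNA and 1.86-fold with control siRNA.

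Most differences were small. Below, a call is followed by the arrays without which it was lost and, where it was lost in 4 or more of the other processing settings tried, by how many kept it. Of these settings, no background correction and the authors' processed values gave nearly the same results. Over all features they called 2647 and 2649 with MTF1 siRNA and 3110 and 3116 with control siRNA. They are therefore close to 1 setting, though each is counted and named separately. The median difference of the 27 genes was 0.09 with MTF1 siRNA and 0.14 with control siRNA, beside -0.01 over all features in both, and the median size, sign dropped, was 0.21 with MTF1 siRNA (0.19 over all features) and 0.27 with control siRNA (0.21 over all features). The 2 comparisons share no array, but the fit took 1 estimate of each gene's spread from all 12 arrays. Their calls are therefore not independent. HK2, PFKFB3, PFKFB4 and ALDOA passed in both and moved the same way, which is 50% of either list of 8, and over all features 1129 did so, which is 50.3% of the MTF1 siRNA calls and 43.9% of the control siRNA calls. The arrays of the groups compared did not overlap for 12 of 27 genes (44.4%) with MTF1 siRNA, against 35.3% of all features. With control siRNA they did not overlap for 14 (51.9%), also against 35.3%. The 12 include ENO2 and PDK2 and the 14 include FBP1, each of which entered only through the group in which it was high. The number of the 27 genes past the threshold also depended on single arrays. With MTF1 siRNA it was 2 without MTF1 siRNA high-zinc replicate 1, against 10.9% of all features. It was 3 without MTF1 siRNA high-zinc replicate 3 (11.5% of all features) or low-zinc replicate 1 (11.8%). It was 4 without MTF1 siRNA high-zinc replicate 2 (12.5%), low-zinc replicate 2 (11.6%) or low-zinc replicate 3 (12.6%). Without control siRNA low-zinc replicate 1 it was 5 (15.2%). With control siRNA the number past the threshold was 3 without control siRNA low-zinc replicate 3, against 12.9% of all features. It was 4 without control siRNA low-zinc replicate 1 (11.2% of all features) or 2 (15.4%). It was 5 without control siRNA high-zinc replicate 3 (11.8%), MTF1 siRNA high-zinc replicate 1 (16.3%) or MTF1 siRNA low-zinc replicate 2 (16.5%).

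**Figure D1:**
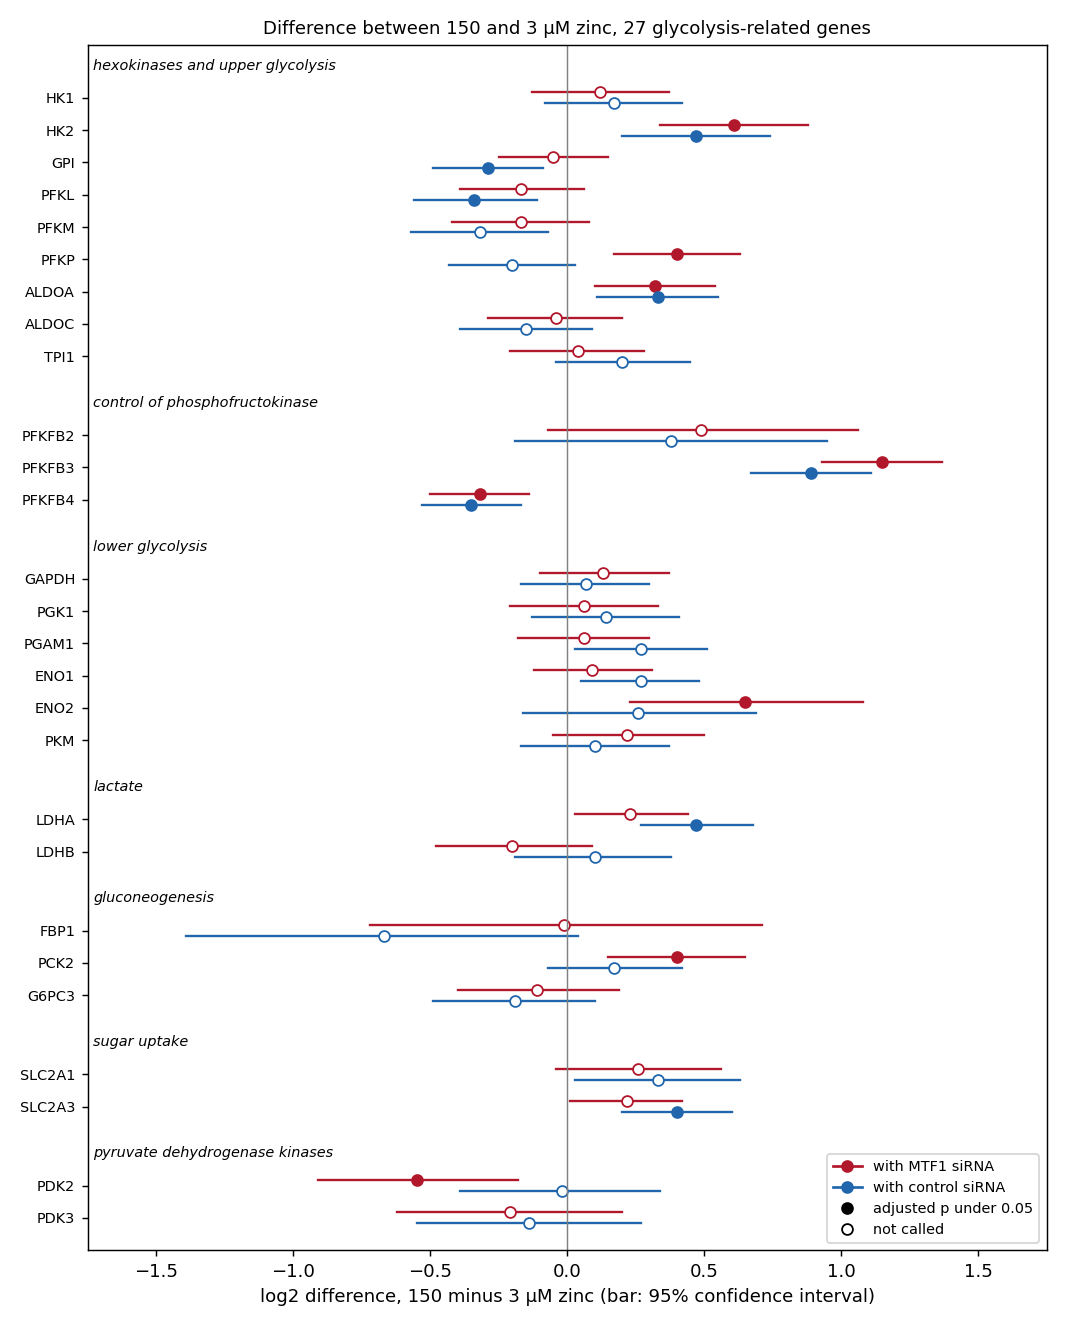
Log2 difference between 150 and 3 µM zinc for each of the 27 genes (points, filled where the adjusted p is under 0.05) with its 95% confidence interval (bars), grouped by role, with MTF1 siRNA in red and control siRNA in blue. PFKFB3 lies farthest to the right with both siRNAs (1.15 with MTF1 siRNA and 0.89 with control siRNA), PFKFB4 lies left of 0 with both (-0.32 with MTF1 siRNA and -0.35 with control siRNA), and PFKP lies right of 0 with MTF1 siRNA (0.40) and left of it with control siRNA (-0.20).

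Promoters of 4 genes are printed because the results turn on these genes: PFKFB3 and HK2 rose with both siRNAs, PFKFB4 fell with both, and the rise of LDHA with control siRNA held under every alternative that was run. Each is the 250 bases before the start that the RefSeq promoter table (GRCh38.p14) uses for the gene, written 5′ to 3′ on the gene's strand. For PFKFB3, HK2 and LDHA that start is the edge of the annotated gene, while for PFKFB4 it lies inside the gene's annotated span, which reaches to 48563136. Capitals mark every match, on either strand, to the core of the hypoxia response element (ACGTG or GCGTG) or of the metal response element that MTF1 binds (TGCACNC or TGCGCNC, where N is any base).
PFKFB3 (chr10:6144671-6144920, plus strand): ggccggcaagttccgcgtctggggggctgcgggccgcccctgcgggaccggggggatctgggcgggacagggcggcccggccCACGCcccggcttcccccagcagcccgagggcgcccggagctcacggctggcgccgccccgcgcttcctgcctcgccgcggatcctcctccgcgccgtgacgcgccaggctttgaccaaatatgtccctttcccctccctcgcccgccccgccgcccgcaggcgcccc
PFKFB4 (chr3:48556804-48557053, minus strand): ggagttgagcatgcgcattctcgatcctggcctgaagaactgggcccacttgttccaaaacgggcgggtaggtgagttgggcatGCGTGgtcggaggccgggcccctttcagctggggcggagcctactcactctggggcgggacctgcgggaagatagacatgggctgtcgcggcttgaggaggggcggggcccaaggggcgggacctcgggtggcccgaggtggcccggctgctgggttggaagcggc
HK2 (chr2:74833877-74834126, plus strand): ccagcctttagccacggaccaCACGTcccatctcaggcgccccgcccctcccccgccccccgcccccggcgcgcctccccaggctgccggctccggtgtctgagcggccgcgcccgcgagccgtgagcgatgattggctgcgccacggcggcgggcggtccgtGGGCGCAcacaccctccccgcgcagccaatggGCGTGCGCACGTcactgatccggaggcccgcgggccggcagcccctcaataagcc
LDHA (chr11:18394313-18394562, plus strand): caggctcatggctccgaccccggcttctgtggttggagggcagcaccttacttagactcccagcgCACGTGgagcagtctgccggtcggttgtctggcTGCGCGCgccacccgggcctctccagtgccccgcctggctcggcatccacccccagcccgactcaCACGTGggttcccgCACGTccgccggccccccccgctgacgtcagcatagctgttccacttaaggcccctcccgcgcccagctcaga
The PFKFB3 window holds 1 hypoxia core, GCGTG on the opposite strand 168 bases before the start, and no metal core. The PFKFB4 window also holds 1 hypoxia core and no metal core. In the HK2 window there are 3 hypoxia cores and 3 metal cores, several of which overlap in a single stretch that begins 55 bases before the start. LDHA holds 5 hypoxia cores, of which 4 come from 2 copies of CACGTG, read on both strands, and 1 metal core. Of all 35116 promoters of this length 43.2% hold a hypoxia core and 24.8% a metal core. Of the 25 kept genes with a promoter in the table, 15 hold a hypoxia core and 9 a metal core. These matches are letters in a window and say nothing of binding.

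Among the enzymes that make and remove fructose 2,6-bisphosphate, PFKFB3 rose and PFKFB4 fell with both siRNAs. PFKFB3 stood at 10.06, 10.09 and 9.95 on the high-zinc arrays with MTF1 siRNA, against 8.92, 8.82 and 8.91 on the low-zinc arrays. On the control siRNA arrays it stood at 9.80, 9.77 and 9.54 at high zinc, against 8.83, 8.69 and 8.91 at low zinc. Every high-zinc array lay above every low-zinc array, and the 3 highest arrays were those of MTF1 siRNA with high zinc. The difference was 1.15 ± 0.10 (SE) with MTF1 siRNA (limma, adjusted p = 1.11e-05) and 0.89 ± 0.10 with control siRNA (adjusted p = 0.00014). A second, dimmer probe of PFKFB3 passed with MTF1 siRNA (0.94; adjusted p = 0.00122) and not with control siRNA (0.39; adjusted p = 0.0929).

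PFKFB4, a sister enzyme, varied little within a group, with an SD of 0.01 to 0.07. It read 10.11, 10.14 and 10.12 at high zinc and 10.44, 10.38 and 10.51 at low zinc with MTF1 siRNA. The control siRNA arrays read 10.04, 9.92 and 9.92 at high zinc and 10.35, 10.23 and 10.34 at low zinc. The high-zinc arrays lay below the low-zinc arrays with both siRNAs. The difference was -0.32 ± 0.08 (adjusted p = 0.0219) with MTF1 siRNA and -0.35 ± 0.08 (adjusted p = 0.0143) with control siRNA. The call with MTF1 siRNA was lost without any of its 3 high-zinc arrays or its low-zinc replicate 1 or 3 (adjusted p up to 0.073), and the call with control siRNA was lost without its low-zinc replicate 1 (0.0534). PFKFB2, the third of these enzymes, differed by 0.49 with MTF1 siRNA (95% confidence interval -0.07 to 1.06) and 0.38 with control siRNA (-0.19 to 0.95) and did not pass. It was detected on 9 of the 12 arrays.

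Of the 9 genes of the upper steps, from hexokinase to triose phosphate isomerase, 3 rose with MTF1 siRNA (7.20% of all features rose), and 2 rose and 2 fell with control siRNA (8.62% and 9.39% of all features). HK2, the hexokinase that growing and tumour cells induce, read 8.54, 8.36 and 8.54 at high zinc with MTF1 siRNA, against 8.07, 7.87 and 7.67 at low zinc. On the control siRNA arrays HK2 read 8.64, 8.53 and 8.78 at high zinc, against 8.34, 8.06 and 8.15 at low zinc. High- and low-zinc arrays were apart with both siRNAs, and the lowest 2 of the 12 arrays were of MTF1 siRNA with low zinc. HK2 rose by 0.61 ± 0.12 (1.53-fold; adjusted p = 0.00586) with MTF1 siRNA and by 0.47 ± 0.12 (1.38-fold; adjusted p = 0.0231) with control siRNA. Its second probe disagreed, with a difference of 0.00 (adjusted p = 0.995) with MTF1 siRNA and 0.23 (0.506) with control siRNA. The call with control siRNA was lost without its high-zinc replicate 3 or low-zinc replicate 2 or 3 (up to 0.0847). HK1, the hexokinase that most tissues keep on, differed by 0.12 with MTF1 siRNA and 0.17 with control siRNA and did not pass.

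Of the 3 phosphofructokinase subunits PFKP rose with MTF1 siRNA, PFKL fell with control siRNA and PFKM did not pass. PFKP, the platelet type, read 10.97, 10.70 and 10.94 at high zinc with MTF1 siRNA, against 10.34, 10.56 and 10.50 at low zinc. With control siRNA it read 10.42, 10.30 and 10.49 at high zinc, against 10.54, 10.67 and 10.60 at low zinc. High-zinc arrays thus lay wholly above low-zinc arrays with MTF1 siRNA and wholly below them with control siRNA. The rise with MTF1 siRNA was 0.40 ± 0.10 (adjusted p = 0.0218), lost without its high-zinc replicate 1 or 3 or low-zinc replicate 1 (up to 0.0895), and the difference of -0.20 ± 0.10 with control siRNA did not pass (adjusted p = 0.22).

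PFKL, the liver type, fell with control siRNA. With MTF1 siRNA it read 7.60, 7.68 and 7.37 at high zinc and 7.67, 7.71 and 7.77 at low zinc. On the control siRNA arrays PFKL read 7.44, 7.35 and 7.60 at high zinc and 7.82, 7.80 and 7.80 at low zinc. The MTF1 siRNA arrays overlapped and those of control siRNA were apart. The differences were -0.17 ± 0.10 (adjusted p = 0.311) with MTF1 siRNA and -0.34 ± 0.10 (adjusted p = 0.0407) with control siRNA. Its call was kept in 3 of 8 other settings and lost without 7 of the 12 arrays (MTF1 siRNA high-zinc replicate 1 and low-zinc replicate 2, control siRNA high-zinc replicates 1 and 2, and all control siRNA low-zinc arrays; adjusted p up to 0.117). PFKM, the muscle type, differed by -0.17 with MTF1 siRNA and -0.32 with control siRNA (adjusted p = 0.0768) and did not pass, but with control siRNA it passed without background correction (-0.26; 0.0367), on the authors' processed values (0.0368) and without control siRNA high-zinc replicate 1 (-0.41; 0.0439).

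GPI turns glucose 6-phosphate into fructose 6-phosphate. It read 11.00, 11.03 and 10.97 at high zinc with MTF1 siRNA, against 11.06, 11.11 and 10.97 at low zinc. With control siRNA it read 10.86, 10.64 and 10.86 at high zinc and 11.16, 11.02 and 11.04 at low zinc. The MTF1 siRNA arrays overlapped (-0.05; adjusted p = 0.781), while those of control siRNA did not and differed by -0.29 ± 0.09 (adjusted p = 0.0485). That call was kept in 3 of 8 other settings and lost without each of the 12 arrays in turn (up to 0.157).

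ALDOA, the main aldolase of muscle and of growing cells, rose by nearly the same amount with both siRNAs. It read 12.49, 12.62 and 12.64 at high zinc and 12.30, 12.34 and 12.15 at low zinc with MTF1 siRNA, and 12.55, 12.43 and 12.67 at high zinc against 12.28, 12.29 and 12.11 at low zinc with control siRNA. The zinc groups were apart in both, by 0.32 ± 0.10 (adjusted p = 0.0485) with MTF1 siRNA and 0.33 ± 0.10 (adjusted p = 0.0419) with control siRNA. The call with MTF1 siRNA was lost without each array (adjusted p up to 0.145) but control siRNA high-zinc replicates 2 and 3 and low-zinc replicate 3, and the call with control siRNA was lost without each (up to 0.138) but MTF1 siRNA low-zinc replicate 3 and control siRNA high-zinc replicate 2. The calls were kept in 4 of 8 other settings with MTF1 siRNA and in 3 of 8 with control siRNA. A second ALDOA probe differed by 0.10 with MTF1 siRNA and 0.15 with control siRNA and did not pass. ALDOC, the brain aldolase, and TPI1, which interconverts the triose phosphates, differed by between -0.15 and 0.20 and did not pass.

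**Figure D2:**
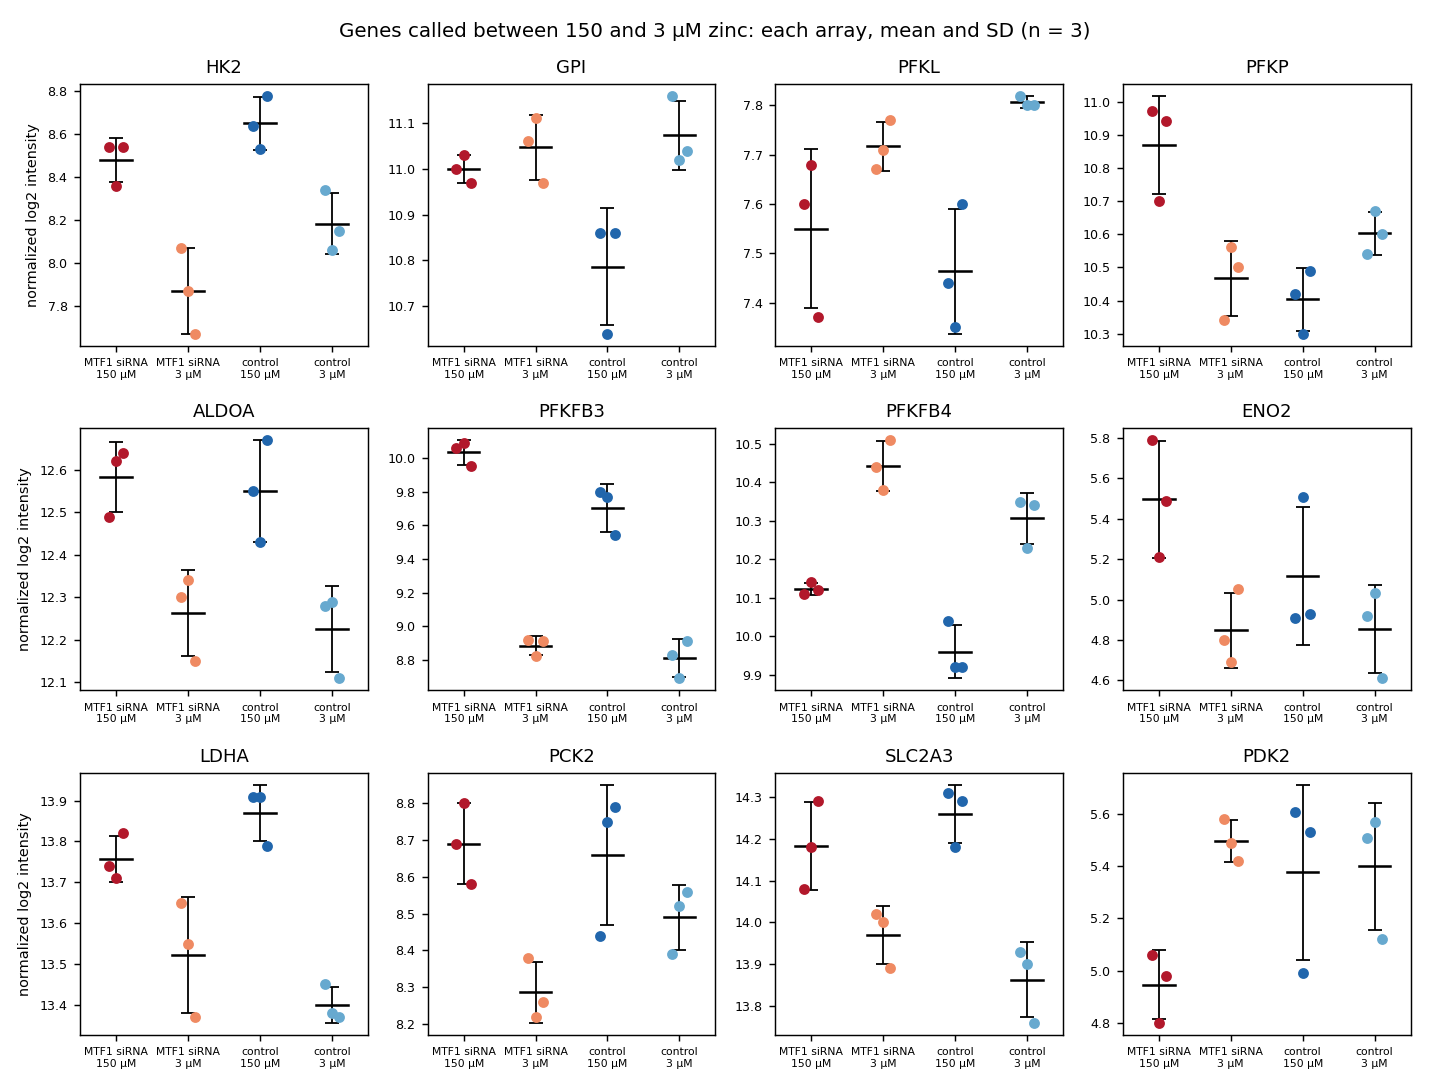
Normalized log2 intensity of the 12 genes called between 150 and 3 µM zinc with either siRNA: each array (points), the group mean (horizontal bar) and SD (error bar), n = 3, with an axis of its own for each gene that does not start at 0. The high-zinc arrays lie wholly above the low-zinc arrays with both siRNAs for HK2, ALDOA, PFKFB3, LDHA and SLC2A3 and wholly below them for PFKFB4, and PFKP shows opposite orders in the 2 pairs of groups.

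The lower steps, from GAPDH to pyruvate kinase, lay above 0 in all 6 kept genes with both siRNAs. Over all features 6834 of 14285 lay above 0 with MTF1 siRNA and 7017 with control siRNA. The differences of the 6 genes lay between 0.06 and 0.65 with MTF1 siRNA and between 0.07 and 0.27 with control siRNA. The smallest of these turned below 0 in other settings: GAPDH with control siRNA with arrays centred on their median (-0.12) and without control siRNA high-zinc replicate 1 (-0.04), and PGAM1 with MTF1 siRNA without its low-zinc replicate 3 (-0.04). Dimmer probes lay below 0 for PKM with control siRNA (-0.07) and for GAPDH with MTF1 siRNA (-0.06). ENO2 was the member that passed, with MTF1 siRNA. ENO2, the neuronal enolase, read 5.79, 5.21 and 5.49 at high zinc with MTF1 siRNA, where it was detected on 3 of 3 arrays, and 4.80, 4.69 and 5.05 at low zinc, where it was detected on none. The control siRNA arrays read 4.91, 5.51 and 4.93 at high zinc and 4.92, 5.03 and 4.61 at low zinc with 1 of the 6 detected. With MTF1 siRNA its level at high zinc was at least 1.22-fold that at low zinc (group means 5.50 and 4.84; adjusted p = 0.0399). Such a bound sets the bright group's mean against, on each array, the higher of the dim probe's own signal and the lowest signal among detected probes. ENO2 met the detection rule through its high group alone, so the rule helped to set this direction. The call was kept in 3 of 7 other settings and lost without MTF1 siRNA high-zinc replicate 1 or 3, its low-zinc replicate 1 or 2, or control siRNA low-zinc replicate 1 (up to 0.151), and with control siRNA the difference of 0.26 did not pass (adjusted p = 0.374).

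GAPDH, the enzyme that makes NADH in glycolysis and is often taken as a reference transcript, differed by 0.13 with MTF1 siRNA (95% confidence interval -0.10 to 0.37) and 0.07 with control siRNA (-0.17 to 0.30). Its 3 probes lay between -0.06 and 0.13. With MTF1 siRNA the differences of ENO1, the enolase of most tissues, PGAM1, a phosphoglycerate mutase, PGK1, the first step to yield ATP, and PKM, the pyruvate kinase of most tissues, were 0.09, 0.06, 0.06 and 0.22. With control siRNA ENO1 differed by 0.27, PGAM1 by 0.27, PGK1 by 0.14 and PKM by 0.10, and none of these passed with either siRNA. With control siRNA ENO1 and PGAM1 passed without background correction (0.26 each; adjusted p = 0.0301 for ENO1 and 0.0442 for PGAM1) and on the authors' processed values (0.0304 for ENO1 and 0.0446 for PGAM1). The second PGK1 probe passed with control siRNA (0.43; adjusted p = 0.0139). PGAM1 has the near-identical copy PGAM4, and processed pseudogenes exist for GAPDH, LDHA and PGK1, so that signal may be shared. PKLR, the pyruvate kinase of liver and red cells, had 5 probes, none detected on more than 2 arrays.

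LDHA, the lactate dehydrogenase subunit that favours lactate, rose with control siRNA. It read 13.74, 13.71 and 13.82 at high zinc with MTF1 siRNA, against 13.65, 13.55 and 13.37 at low zinc. The control siRNA arrays read 13.91, 13.91 and 13.79 at high zinc, against 13.45, 13.38 and 13.37 at low zinc. High- and low-zinc arrays were apart with both siRNAs. The difference was 0.23 ± 0.09 (adjusted p = 0.12) with MTF1 siRNA and 0.47 ± 0.09 (1.39-fold; adjusted p = 0.00579) with control siRNA. With MTF1 siRNA it passed with arrays centred on their median (0.29; limma, adjusted p = 0.0468). A second LDHA probe passed with both (0.33, adjusted p = 0.0461, with MTF1 siRNA and 0.64, adjusted p = 0.00141, with control siRNA). LDHB, the subunit of heart muscle, differed by -0.20 with MTF1 siRNA and 0.10 with control siRNA and did not pass. The lactate carriers SLC16A1 and SLC16A3 were without a probe named for them and are not analysed here.

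**Figure D3:**
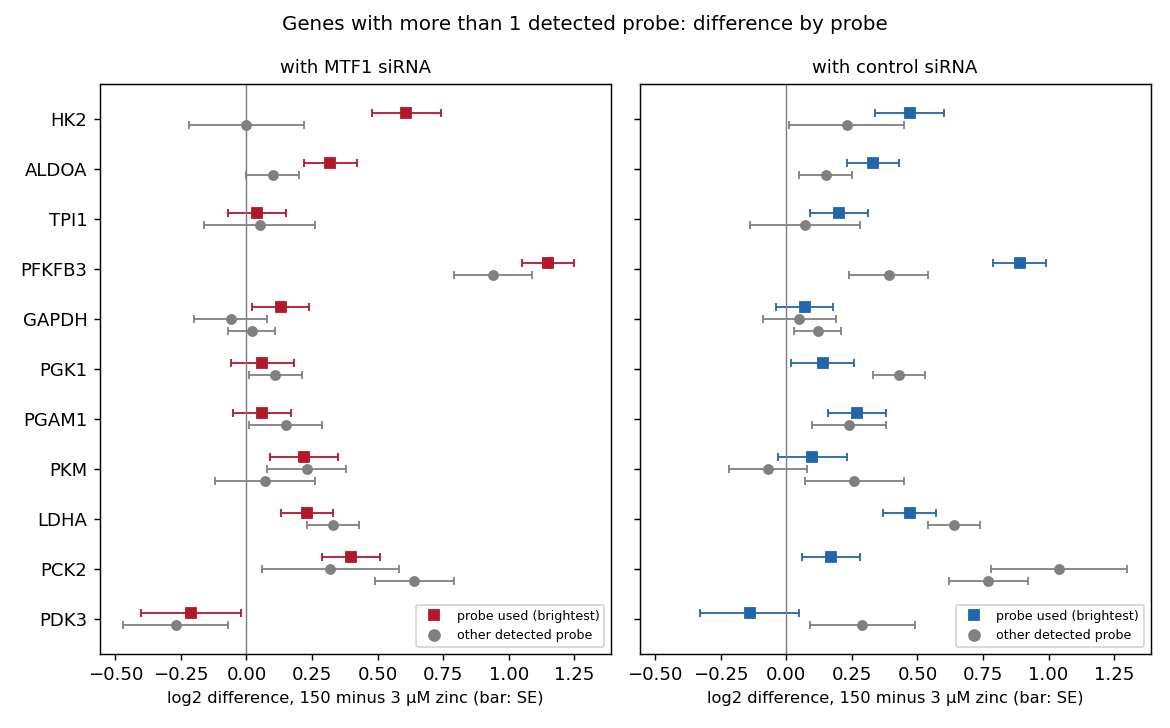
Log2 difference between 150 and 3 µM zinc (point) and its SE (bar) for every detected probe of the genes with more than 1, with MTF1 siRNA on the left and control siRNA on the right. Squares are the brightest probe, which stands for the gene in the text, and grey circles are the other probes. The HK2 probes differ most with MTF1 siRNA (0.61 and 0.00), the PCK2 probes most with control siRNA (0.17, 1.04 and 0.77).

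In gluconeogenesis PCK2, the mitochondrial enzyme that makes phosphoenolpyruvate, rose with MTF1 siRNA. It read 8.69, 8.80 and 8.58 at high zinc and 8.38, 8.22 and 8.26 at low zinc with MTF1 siRNA. With control siRNA it read 8.44, 8.75 and 8.79 at high zinc and 8.39, 8.52 and 8.56 at low zinc, which overlapped. The difference was 0.40 ± 0.11 (adjusted p = 0.0319) with MTF1 siRNA, lost without its high-zinc replicate 1 or 2 or its low-zinc replicate 2 or 3 (up to 0.108), and 0.17 ± 0.11 (adjusted p = 0.316) with control siRNA. Its 2 dimmer probes passed with control siRNA (1.04, adjusted p = 0.0171, and 0.77, adjusted p = 0.00509), and of these the second also passed with MTF1 siRNA (0.64; 0.0134). FBP1, which reverses the phosphofructokinase step, was detected on 6 of the 12 arrays, all 3 of control siRNA with low zinc among them. It met the detection rule through these 3 arrays alone, the group in which it was high. It differed by -0.01 with MTF1 siRNA (95% confidence interval -0.72 to 0.71; adjusted p = 0.991) and -0.67 with control siRNA (-1.39 to 0.04; 0.178). G6PC3, the glucose 6-phosphatase of most tissues, differed by -0.11 with MTF1 siRNA and -0.19 with control siRNA and did not pass. G6PC1, the liver form, fell just outside the rule, with 1 probe detected on 2 of 3 control siRNA low-zinc arrays, and PCK1, the cytosolic partner of PCK2, was detected on 2 arrays of 12.

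Among the sugar carriers SLC2A3 (GLUT3), a high-affinity glucose carrier, rose with control siRNA. It read 14.08, 14.18 and 14.29 at high zinc with MTF1 siRNA, against 14.02, 14.00 and 13.89 at low zinc. With control siRNA it read 14.31, 14.18 and 14.29 at high zinc, against 13.93, 13.90 and 13.76 at low zinc. The zinc groups were apart with both siRNAs. SLC2A3 differed by 0.22 ± 0.09 (adjusted p = 0.147) with MTF1 siRNA and by 0.40 ± 0.09 (adjusted p = 0.0127) with control siRNA, a call lost without control siRNA low-zinc replicate 3 (0.0501) and with arrays centred on their median (0.21; 0.154). Its near-identical copy SLC2A14 (GLUT14) rose by 0.78 (adjusted p = 0.00123) with MTF1 siRNA and by 0.93 (0.000529) with control siRNA, and probes of this pair may share signal. SLC2A1 (GLUT1), the carrier of most growing cells, differed by 0.26 with MTF1 siRNA (adjusted p = 0.228) and 0.33 with control siRNA (0.113). With control siRNA it passed without background correction (0.33; adjusted p = 0.0385) and on the authors' processed values (0.0386). The probes of SLC2A2 (GLUT2) and SLC5A1 (SGLT1), carriers of the absorptive enterocyte, were detected on none of the 12 arrays.

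Pyruvate dehydrogenase kinases keep pyruvate out of the mitochondrial cycle. PDK2 read 5.06, 4.80 and 4.98 at high zinc with MTF1 siRNA, where no array detected it, and 5.58, 5.49 and 5.42 at low zinc, where all 3 did. The control siRNA arrays read 5.61, 4.99 and 5.53 at high zinc and 5.51, 5.57 and 5.12 at low zinc, with 2 of 3 detected in each. With MTF1 siRNA it was at least 1.22-fold lower at high zinc (group means 4.95 and 5.50; adjusted p = 0.0452), but PDK2 met the detection rule through the MTF1 siRNA low-zinc arrays alone, which helped to set this direction. With control siRNA it differed by -0.02 (0.939). The call with MTF1 siRNA was kept in 2 of 7 other settings and lost without 9 of the 12 arrays (all 6 of MTF1 siRNA, control siRNA high-zinc replicate 3 and control siRNA low-zinc replicates 1 and 2; adjusted p up to 0.136). PDK3 differed by -0.21 with MTF1 siRNA and -0.14 with control siRNA and did not pass. PDK1 and PDK4 were detected on no array.

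MTF1 siRNA against control siRNA at high zinc asks what lowering MTF1 changes in zinc-loaded cells. Of the 27 genes 1 passed (3.7%), against 1.90% of all features, and 7 had an unadjusted p under 0.05, against 20.7%. The share over all features was 0.147% without MTF1 siRNA high-zinc replicate 2, 0.273% without its replicate 1, 0.686% without its replicate 3, 0.315% without control siRNA high-zinc replicate 3, 0.49% without its replicate 2 and 1.21% without MTF1 siRNA low-zinc replicate 2. The gene that passed was PFKP, which rose 1.38-fold (0.672% of all features rose), by 0.46 ± 0.10 (adjusted p = 0.0483), with the arrays apart (10.97, 10.70 and 10.94 with MTF1 siRNA against 10.42, 10.30 and 10.49 with control siRNA). The call was kept in 3 of 8 other settings and lost without each of the 12 arrays in turn (up to 0.158). PFKFB3 (0.33; adjusted p = 0.104), PFKM (0.31; 0.164) and GPI (0.22; 0.215) stood apart with the MTF1 siRNA arrays above those of control siRNA, and LDHB (-0.33; 0.183) stood apart with them below, but none of these passed. PFKFB4 (0.16; 0.289) and PGAM1 (0.19; 0.356) also stood apart with MTF1 siRNA above and did not pass. PFKFB3 passed without background correction (0.30; limma, adjusted p = 0.0321) and on the authors' processed values (0.30; 0.0324). Arrays did not overlap for 7 of 27 genes (25.9%), against 26.3% of all features. Over all features 96 rose and 175 fell, and with arrays centred on their median 89 rose and 95 fell.

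At low zinc none of the 27 genes passed, against 0.119% of all features (limma). At an unadjusted p under 0.05 there were 3 (HK2, PGK1 and PGAM1), against 14.7% of all features, and arrays did not overlap for 5 (18.5%), against 20.5%. PGAM1 came closest to the threshold. It read 12.13, 11.90 and 11.72 with MTF1 siRNA, against 11.50, 11.56 and 11.51 with control siRNA, every array above, and differed by 0.40 ± 0.11 (limma, adjusted p = 0.163). Without background correction and on the authors' processed values it passed (0.38 in both; adjusted p = 0.0429 without background correction and 0.0432 on the authors' values). HK2 differed by -0.32 ± 0.12 (adjusted p = 0.277) and PGK1 by 0.30 ± 0.12 (0.292). The second probes of these genes differed by 0.13 for HK2 (limma, adjusted p = 0.816), the opposite sign, and by 0.03 for PGK1 (0.928). That of PGAM1 differed by 0.26 (0.418). The 2 comparisons of siRNAs share no array with each other, and each shares arrays with both zinc comparisons.

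**Figure D4:**
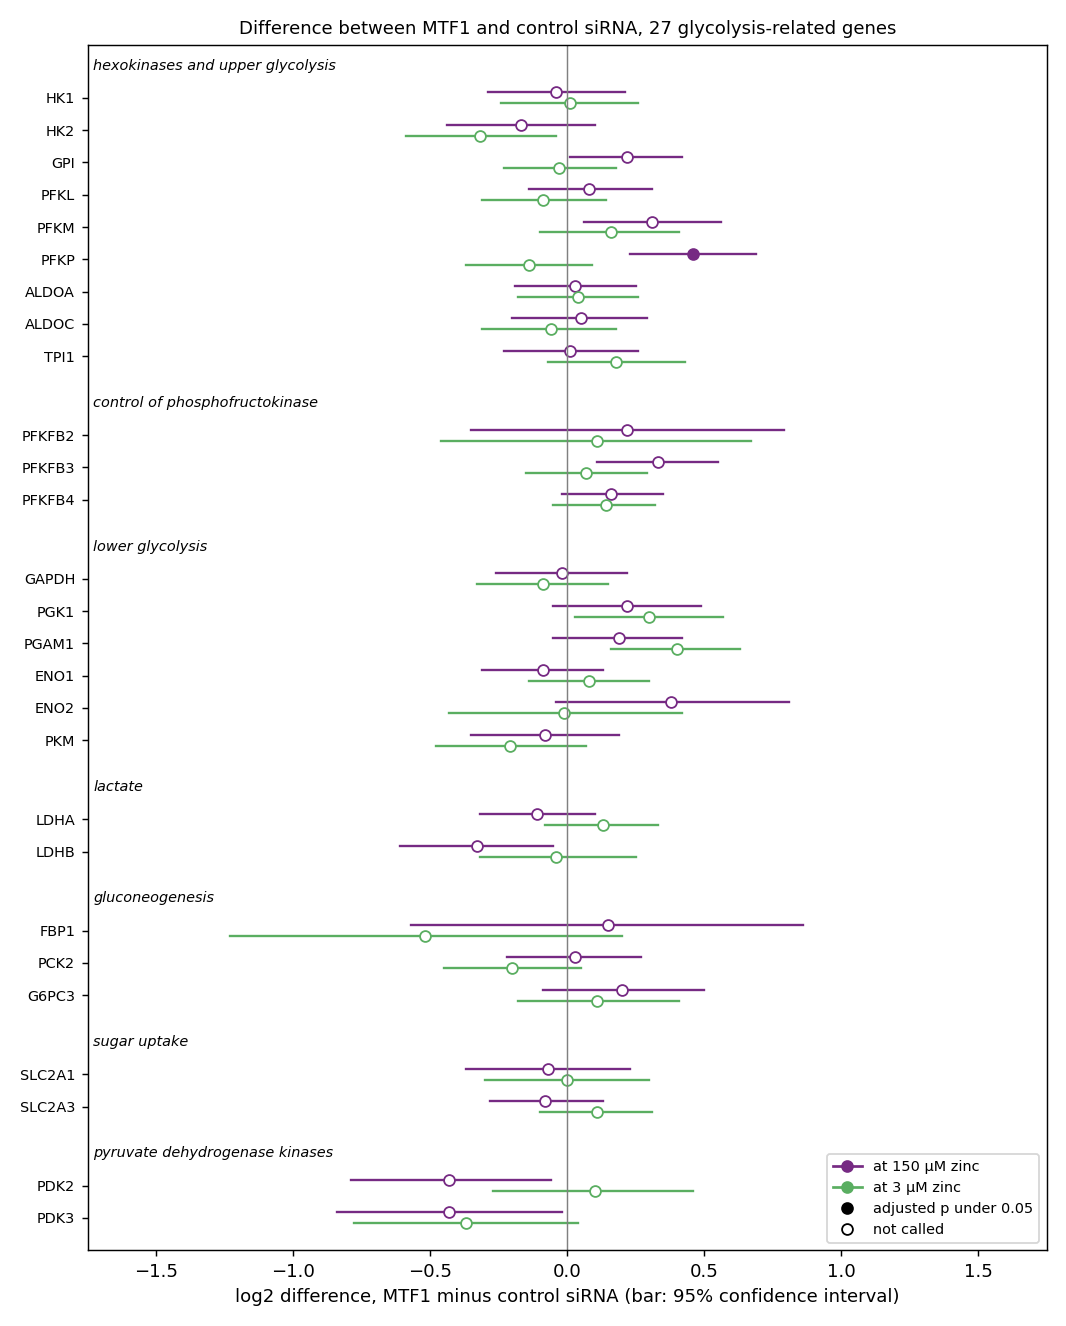
Log2 difference between MTF1 and control siRNA for the 27 genes (points, filled where the adjusted p is under 0.05) with its 95% confidence interval (bars), at 150 µM zinc in purple and 3 µM zinc in green. PFKP at high zinc (0.46) is the filled point, and PGAM1 at low zinc (0.40) lies farthest to the right of the open green points.

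Whether the zinc response itself depended on the siRNA was tested as the zinc difference with MTF1 siRNA minus that with control siRNA. None of the 27 genes passed (limma), against 0.0210% of all features, and 2 had an unadjusted p under 0.05, against 15.9% of all features. They were PFKP (0.60 ± 0.15, 95% confidence interval 0.28 to 0.92; limma, adjusted p = 0.168) and PDK2 (-0.52, interval -1.04 to -0.01; adjusted p = 0.308). PDK2 met the detection rule through the MTF1 siRNA low-zinc arrays alone, which helped to set this direction too. As none passed, genes that passed with 1 siRNA and not with the other are not shown to differ between them. For LDHA the difference was -0.24 (-0.53 to 0.05), for PFKFB3 0.26 (-0.05 to 0.57), for GPI 0.24 (-0.04 to 0.53) and for SLC2A3 -0.18 (-0.47 to 0.10). The smallest were those of ALDOA (0.00, -0.31 to 0.30) and PFKFB4 (0.03, -0.23 to 0.29).

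Neighbouring pathways were described from lists of genes that are not among the 36. Of 9 other glycolytic genes measured of 16 listed, 2 rose with MTF1 siRNA (7.20% of all features rose). With control siRNA 2 rose (8.62% of all features) and 1 fell (9.39%). BPGM, which makes 2,3-bisphosphoglycerate, rose by 0.91 (limma, adjusted p = 0.00498) with MTF1 siRNA and 0.70 (0.0197) with control siRNA. PGM2, a phosphopentomutase, rose by 0.46 (0.0107) with MTF1 siRNA. With control siRNA PGAM4 rose by 0.39 (0.0169), and LDHD, a D-lactate dehydrogenase, was at least 1.44-fold lower (0.00789), with no high-zinc array above background, but it met the detection rule through the control siRNA low-zinc arrays alone, which helped to set this direction. Of 11 further genes of gluconeogenesis and glycogen measured of 16 listed, 1 rose (7.20% of all features) and 1 fell (8.51%) with MTF1 siRNA. With control siRNA 2 of the 11 rose (8.62%) and 1 fell (9.39%). GOT1, the cytosolic aspartate aminotransferase, rose by 0.55 (0.000549) with MTF1 siRNA and 0.57 (0.00064) with control siRNA. SLC37A4, the glucose 6-phosphate carrier of the endoplasmic reticulum, fell with MTF1 siRNA (-0.46; 0.0181). With control siRNA PC, pyruvate carboxylase, fell (-0.63; 0.0281) and UGP2, which makes UDP-glucose, rose (0.38; 0.0241). Of 10 further sugar and monocarboxylate carriers measured of 20 listed, SLC2A14 was the gene that passed in either comparison. Over all features 15.7% passed with MTF1 siRNA and 18.0% with control siRNA.

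Of 8 genes of pyruvate entry measured of 10 listed, 2 fell with MTF1 siRNA (8.51% of all features fell) and 1 with control siRNA (9.39%), and the others did not pass. MPC2, a subunit of the mitochondrial pyruvate carrier, fell in both (-0.49, adjusted p = 0.00995, with MTF1 siRNA, and -0.85, 0.000382, with control siRNA), and PDHB, a pyruvate dehydrogenase subunit, fell with MTF1 siRNA (-0.37; 0.0127). Of 10 genes of the pentose phosphate and other sugar pathways measured of 14 listed, 2 fell with MTF1 siRNA (8.51% of all features). With control siRNA 3 of the 10 fell (9.39%) and 1 rose (8.62%). The galactose enzymes GALK1 and GALT fell with both siRNAs. GALK1 differed by -0.57 (0.00138) with MTF1 siRNA and -0.49 (0.00428) with control siRNA, and GALT by -0.47 (0.0323) with MTF1 siRNA and -0.59 (0.0111) with control siRNA. With control siRNA RPIA, ribose 5-phosphate isomerase, fell (-0.42; 0.0106) and GFPT1, the entry to hexosamine synthesis, rose (0.31; 0.0453). Of 6 measured control genes of 13 listed, TXNIP, which restrains glucose uptake, fell with MTF1 siRNA (-0.47; 0.0361), HIF1A, the oxygen-sensing factor, rose with control siRNA (0.41; 0.0491), and FOXO1 was lower with MTF1 siRNA than with control siRNA at high zinc (-0.51; 0.0252). Over all features 15.7% passed with MTF1 siRNA, 18.0% with control siRNA and 1.90% between the siRNAs at high zinc. In none of these lists did a gene pass between the siRNAs at low zinc (limma), against 0.119% of all features. None passed in the test of the difference between zinc responses either, against 0.0210%.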

How the data were processed

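Total RNA from 12 Caco-2 samples was hybridised to Illumina HumanHT-12 V4 bead arrays. The deposited table held probe intensity values without normalization, per the file headers, each paired with a detection p-value, as the file headers name it (a p-value deposited by the authors). The series matrix, also deposited, gives log2 values processed by the authors, with every median at 7.03 and the ranks of the raw intensities. The sources used here do not say how beads were summarized or how long zinc was applied. Intensities were background-corrected by normexp, given an offset of 16, which shrinks the differences of dim probes, quantile normalized and brought to log2 with neqc (limma 3.58.1, R 4.3.3). Of 47323 probes, 30113 have 1 gene symbol in the platform annotation, 8 have several and 17202 have none, and 30074 symbols were updated through the gene identifier (RefSeq, GRCh38.p14).

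The 17413 probes that met the detection rule given above entered, and the entering probe of highest mean stood for its gene. The 14285 features comprise 10584 named genes and 3701 unnamed probes. The 12 arrays were fitted together, with a mean for each group, in limma (lmFit and eBayes). The two-sided p-values of a comparison were adjusted over its 14285 features (Benjamini-Hochberg), and an adjusted p under 0.05 counted as past the threshold. Intervals are 95% intervals of the fit. The tests were checked on simulated data. The members and lists were chosen with earlier results of these data known. Genes given array by array were members past the threshold in any comparison with the arrays of the groups compared apart, while the others are given by ranges and counts, and up to 6 genes past the threshold were named per neighbouring list. PGAM1 at low zinc, and the genes named without passing, were named after their values were seen. Same-numbered samples showed little shared deviation: over 18 same-numbered pairs, deviations from group means correlated at -0.10 to 0.14, with 1 pair over 0.1. This cannot show whether samples of 1 number were prepared together, which the labels do not say. Alternatives were no background correction, median centring, the authors' values, no filter and a stricter filter on dim probes, the entering probe of lowest mean, the replicate block, only the 2 groups compared, and each array left out. No column gives a chip, so a chip block was not run. Promoters came from RefSeq (32 of 36 genes matched).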

Additional observations from a re-analysis of the deposited data

Results flagged for a closer look

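The arrays of PFKP, a phosphofructokinase subunit, stood in opposite zinc orders with the 2 siRNAs, although the difference passed with MTF1 siRNA (0.40; limma, adjusted p = 0.0218) and not with control siRNA (-0.20; 0.22). Every high-zinc array lay above every low-zinc array with MTF1 siRNA (means 10.87 and 10.47), and every high-zinc array lay below every low-zinc array with control siRNA (means 10.41 and 10.60). The response with MTF1 siRNA minus that with control siRNA was 0.60 ± 0.15 (SE), which did not pass over all features (limma, adjusted p = 0.168). It passed without background correction (0.56; adjusted p = 0.04) and on the authors' processed values (0.56; 0.0403), 2 settings that gave nearly the same results. Over all features 117 passed in each of these, against 3 in the main fit. PFKP was represented by 1 detected probe, and its second probe was detected on 3 of the 12 arrays.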

How the results depend on the processing

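None of the called differences of the 27 genes turned round under any alternative, while some uncalled ones near 0 did. The neighbouring lists were not rerun under the alternatives. Of the calls, those of PFKFB3 with MTF1 siRNA and LDHA with control siRNA were kept in every alternative and without each array in turn, with adjusted p of at most 0.00142 and 0.0288. HK2 with MTF1 siRNA and PFKFB3 with control siRNA were lost only with the entering probe of lowest mean (adjusted p = 0.994 and 0.1). For zinc with MTF1 siRNA 8 of the 27 genes passed (15.7% of all features). With no filter on dim probes, where 37256 features were tested, 2 passed (4.04% of all features). There were 5 with the probe of lowest mean (13.8%), 5 with only the 2 groups compared (14.5%), and 2 to 8 without 1 array (10.9% to 16.3%). For zinc with control siRNA 8 also passed (18.0% of all features). There were 4 with median centring (15.9%), 3 with no filter (4.13%), 5 with the probe of lowest mean (15.7%) and 5 with the replicate block (16.2%). There were 4 with only the 2 groups (12.5%), 12 without background correction or on the authors' values (21.8% in each), and 3 to 7 without 1 array (11.2% to 18.1%). For MTF1 siRNA at high zinc, where 1 passed (1.90% of all features), there were 2 without background correction (6.57%) and 2 on the authors' values (6.59%). There were 0 with median centring (1.29%), no filter (0.0805%), the probe of lowest mean (2.03%), the replicate block (0.819%), only the 2 groups (0.266%) and without each array (0.147% to 1.72%). At low zinc 1 passed without background correction and on the authors' values (1.06% of all features in each), and 0 elsewhere and without each array (at most 0.202%). In the difference between zinc responses 1 also passed in these 2 settings (0.819% in each), and 0 elsewhere and without each array (at most 0.063%). Beyond the smaller number of arrays or larger number of features where the alternative brings that, the cause was not tested. With the replicate block the 5 counts were 6, 5, 0, 0 and 0, and over all features 2055, 2308, 117, 3 and 1. Over all features counts moved by more than 1.5 times as follows. For zinc with control siRNA (2573) there were 1540 with no filter, 1607 without control siRNA low-zinc replicate 1 and 1682 without its high-zinc replicate 3. For MTF1 siRNA at high zinc (271) there were 939 without background correction, 942 on the authors' values, 30 with no filter, 440 with the stricter filter, 38 with only the 2 groups, and 21 to 173 without any high-zinc array but control siRNA replicate 1 or without MTF1 siRNA low-zinc replicate 2. At low zinc (17) there were 152 without background correction and on the authors' values, 7 with median centring, 2 with no filter, 0 with only the 2 groups, and 0 to 11 without 1 array, except 17 without MTF1 siRNA low-zinc replicate 2 and 20 without control siRNA high-zinc replicate 2. For the difference between responses (3) there were 117 without background correction and on the authors' values, 1 with median centring, no filter or the stricter filter, and 1 to 9 without 1 array. PFKFB2, ENO2, FBP1 and PDK2 lie near background, which limits the size of their differences.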
